A study of Mus musculus with 12 samples.

Results

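Polyadenylated RNA of mouse bone marrow-derived macrophages (BMDMs) polarized with LPS alone was compared with that of BMDMs polarized with IL-4 alone. BMDMs are macrophages grown from bone marrow precursors, here for 6 days with L929 supernatant, a source of the growth factor M-CSF. The LPS group had 3 h of LPS without IL-4, at 100 ng/ml per the labels (the study's methods write the dose in another unit), and the IL-4 group had 24 h of IL-4 (20 ng/ml) without LPS. All mice were wild-type, of the C57BL/6 background per the study's methods, and 8 to 12 weeks of age. Each group held 3 samples, so the comparison used 6 of the 12 samples of the series. The other samples were 3 untreated controls and 3 samples with 24 h of IL-4 (20 ng/ml) followed by 3 h of LPS (100 ng/ml), called IL-4+LPS. They gave levels beside the comparison and entered the estimate of the spread. The legend of the study gave 3 individual animals from 2 independent experiments, but which sample came from which experiment was not given. The exposure times were 3 h and 24 h, so stimulus and exposure time cannot be told apart in any difference below.

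A row of the expression tables (a gene symbol with its locus and transcription start) was taken where it reached 1 FPKM in any of the 6 samples. FPKM is the number of sequenced fragments per kilobase of transcript, relative to all fragments mapped in that sample. This gave 10854 of 23847 rows. Values were compared as log2(FPKM + 1), and every difference is LPS minus IL-4 on that scale, which makes the change of weakly expressed genes look smaller. The standard error (SE) and the p-value of each row came from limma, and p-values were adjusted over all 10854 rows by the Benjamini-Hochberg method. A row with an adjusted p under 0.05 is called higher or lower in LPS. Where a gene name or its values are followed by a number in parentheses, that number is the difference.

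LPS, a component of the outer membrane of Gram-negative bacteria, is bound by CD14 and by TLR4 with MD-2. The adaptors MyD88 and TRIF then lead to NF-κB and AP-1, which drive cytokine and chemokine genes, and to interferon regulatory factors, which drive interferon beta and through it the interferon-stimulated genes. IL-4 binds a receptor chain encoded by Il4ra, activates JAK kinases and the transcription factor STAT6, and is known in macrophages for inducing Arg1, Retnla and Chi3l3 (also called Chil3), lectin receptors, and oxidative metabolism of fatty acids. LPS-treated macrophages are known for nitric oxide synthesis, glycolysis and itaconate synthesis.

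The 8 macrophage markers present in the tables (Cd14, Cd68, Csf1r, Emr1, Fcgr1, Itgam, Lyz2 and Mertk) all reached 1 FPKM, and Spi1 was not analysed here. Their summed level ranged from 16816 to 17853 FPKM in LPS and from 7585 to 7799 FPKM in IL-4, and Lyz2 supplied most of it. Of the markers of T cells, B cells, dendritic cells, fibroblasts, and eosinophils, basophils and mast cells, only 1 per list reached 1 FPKM, of the endothelial markers Kdr and Pecam1 did, and of the erythroid markers none did. Pax5, Lum and Tek were at 0 in all 6 samples. Neutrophil markers were the exception, as 7 of the 8 in the tables reached 1 FPKM. Their summed level ranged from 568 to 1167 FPKM in LPS and from 236 to 449 FPKM in IL-4. S100a8 and S100a9 made up most of that sum, while Mpo and Elane lay between 1.52 and 8.29 FPKM in both groups. Summed FPKM per sample ranged from 457583 to 477621, and the relative depth inferred from the steps of low values ranged from 1 to 2.63 times that of IL-4 replicate 1. Replicates 2 and 3 resembled each other more than either resembled replicate 1, with Pearson's r of log2(FPKM + 1) across rows of 0.973 in LPS and 0.972 in IL-4 against 0.957 to 0.959 for pairs with replicate 1. LPS and IL-4 replicate 1 also had the lowest relative depths, 1.04 and 1. The part of neutrophil markers and of depth in the differences below was not tested.

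Most expressed rows separated the polarized states. In bulk RNA such as this, fewer cells with a transcript and less of it per cell cannot be told apart. LPS was higher than IL-4 in 2056 rows (18.9% of those tested) and lower in 6092 rows (56.1%). The median difference over all rows was -0.42, and the medians of the 3 replicate numbers lay between -0.44 and -0.39 (SD 0.028, n = 3). FPKM is relative to the library, and the median over the rows tested was 7.21 to 7.40 FPKM in LPS samples against 9.50 to 9.60 FPKM in IL-4 samples. After scaling each sample by its median over rows with at least 1 FPKM in all 12 samples, LPS was higher in 2990 rows (27.5%) and lower in 4328 rows (39.9%), and the median difference was -0.13. Calls higher in LPS made up 25.2% of all calls before that scaling and 40.9% after it. No overlap between the samples of both groups was seen in 2148 rows (19.8%) with LPS above and 6227 rows (57.4%) with LPS below.

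Large differences were split more evenly. At least 2-fold differences among the calls numbered 1037 rows higher (9.55%) and 2092 rows lower (19.3%), but at least 4-fold differences numbered 485 higher (4.47%) and 369 lower (3.4%). That order turned with a pseudocount of 0.1 in place of 1, which gave 671 higher and 856 lower, while median scaling gave 604 higher and 261 lower. At 16-fold or more, 134 rows were higher (1.23%) and 33 were lower (0.304%). Relative to the median of all rows, 1509 rows were at least 2-fold higher and 926 at least 2-fold lower. In 5741 rows (52.9%) the 95% interval of the difference on the log2(FPKM + 1) scale lay between -1 and 1, a scale that understates the fold of weakly expressed rows. The plot of mean expression shows the wide LPS arm and the narrower IL-4 arm, which Retnla extends to the far right.

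**Figure D1:**
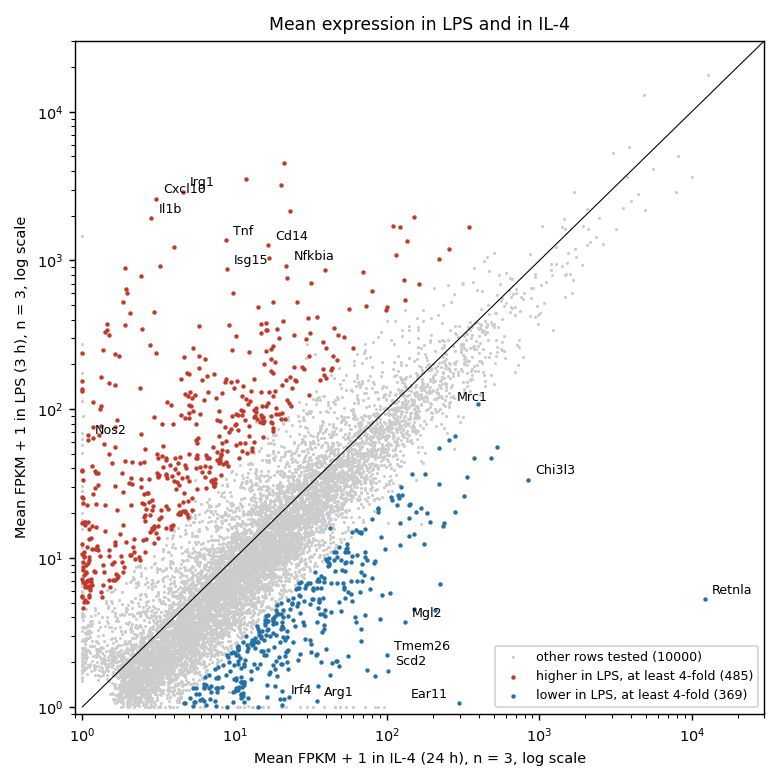
Mean FPKM + 1 of every tested row in IL-4 (horizontal axis, log scale, n = 3) and in LPS (vertical axis, log scale, n = 3), with the line of equal values. Red marks the 485 rows at least 4-fold higher in LPS, blue the 369 rows at least 4-fold lower and grey the other 10000 rows tested, and Retnla lies farthest below the line.

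The genes with the largest excess in LPS encoded chemokines, a cytokine, an enzyme of itaconate synthesis and interferon-induced proteins. Cxcl10, a chemokine that recruits activated T cells, stood at 2429.6, 2602 and 2749 FPKM in the LPS samples and at 4.30, 1.20 and 0.639 FPKM in the IL-4 samples, a difference of 9.92 (SE 0.35, adjusted p = 3.08e-09). Irg1, which encodes the enzyme that makes itaconate, stood at 2833, 2835 and 3017 FPKM in LPS and 7.69, 1.92 and 1.04 FPKM in IL-4, with a difference of 9.60 (SE 0.45, adjusted p = 1.96e-08). In IL-4, replicate 1 was the highest of 3 for both genes, yet it lay far below every LPS sample. Il1b, the precursor of the fever cytokine IL-1β, was at 1187, 2247 and 2314 FPKM in LPS and 2.91, 2.08 and 0.510 FPKM in IL-4, a difference of 9.45 (SE 0.59, adjusted p = 1.58e-07).

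Cxcl2 and Cxcl1, which attract neutrophils, differed by 8.90 and 8.08, and Ccl5, a chemokine for T cells and monocytes, by 8.15. Cxcl1 was at 1.01, 0.313 and 0 FPKM in IL-4 and 354, 419 and 347 FPKM in LPS. The interferon-induced genes among the leading 12 were Ifit1 (8.42, SE 0.26, adjusted p = 1.52e-09), Gbp5 (8.29, SE 0.17, adjusted p = 2.10e-10) and Rsad2 (8.21, SE 0.31, adjusted p = 4.95e-09), of which the lowest LPS value was 546 FPKM (Gbp5) and the highest IL-4 value 3.65 FPKM (Rsad2). Clec4e, the receptor Mincle for mycobacterial glycolipids, was at 811, 744 and 819 FPKM in LPS and 2.57, 0.869 and 0.887 FPKM in IL-4 (8.41, SE 0.21, adjusted p = 3.76e-10). Saa3, an acute-phase protein, varied most among these genes within LPS, at 1855, 4274 and 4469 FPKM, and its IL-4 samples were at 18.7, 8.83 and 4.94 FPKM (8.29, SE 0.68, adjusted p = 1.19e-06). Marcksl1, which encodes an actin-linked substrate of protein kinase C, completed the 12 with 1070.2, 1285 and 1318 FPKM in LPS against 3.35, 3.31 and 2.25 FPKM in IL-4 (8.27, SE 0.20, adjusted p = 3.76e-10). For all 12 genes, the lowest LPS sample exceeded the highest IL-4 sample, as did 19.8% of all rows. The choice of these genes by the largest differences nearly ensures this.

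The genes with the largest excess in IL-4 were led by Retnla, which encodes the secreted resistin-like protein RELMα, a marker of alternative polarization. Retnla stood at 11617, 11878 and 13029 FPKM in IL-4 and at 3.48, 2.82 and 6.61 FPKM in LPS, a difference of -11.23 (SE 0.35, adjusted p = 1.41e-09). Its 3 IL-4 samples varied by little and each lay far above every LPS sample. Ear11, Ear2 and Ear12 encode eosinophil-associated ribonucleases. Ear11 was at 298, 286 and 308 FPKM in IL-4 and 0, 0.0654 and 0.119 FPKM in LPS (-8.13, SE 0.14, adjusted p = 2.10e-10), so that LPS samples were at or near 0. Ear2 (-5.77, SE 0.23, adjusted p = 5.98e-09) and Ear12 (-5.37, SE 0.31, adjusted p = 1.01e-07) differed less, but Ear2 shares 41.5% of the 50-base words of its longest transcript with other genes, mostly Ear10, and Ear12 was not matched to the annotation, so how reads were divided within the family is uncertain. Other markers of eosinophils, basophils and mast cells did not follow, as only Prg2 of the 7 in the tables reached 1 FPKM, and their summed level was 3.03 to 5.67 FPKM in IL-4 and 6.24 to 10.3 FPKM in LPS.

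The remaining genes of the IL-4 arm included an enzyme of lipid desaturation, membrane receptors and known targets of IL-4. Scd2, a stearoyl-CoA desaturase, was at 104, 90.5 and 104 FPKM in IL-4 and 0.770, 0.892 and 0.587 FPKM in LPS (-5.85, SE 0.32, adjusted p = 7.14e-08). Arg1, the enzyme that splits arginine into ornithine and urea, stood at 49.6, 27.3 and 23.6 FPKM in IL-4 and 0.190, 0.0250 and 0.0456 FPKM in LPS (-4.92, SE 0.26, adjusted p = 4.64e-08), so that all LPS samples were near 0. Chi3l3, a chitinase-like protein, was at 713, 942 and 866 FPKM in IL-4 and 18.3, 46.1 and 33.1 FPKM in LPS (-4.73, SE 0.32, adjusted p = 3.17e-07), and 29.4% of its 50-base words occur in other genes, mostly Chil4. Mgl2, a galactose-binding lectin receptor, was at 128, 121 and 138 FPKM in IL-4 and 2.39, 2.70 and 2.98 FPKM in LPS (-5.14, SE 0.11, adjusted p = 2.36e-10), with 16.5% of its words shared, mostly with Clec10a. Tmem26, a membrane protein, was at 86.1, 111 and 99.5 FPKM in IL-4 and 1.11, 1.49 and 1.08 FPKM in LPS (-5.48, SE 0.12, adjusted p = 2.58e-10), with the 3 LPS samples close together. Angptl2, a secreted angiopoietin-like protein, differed by -5.03 (SE 0.15, adjusted p = 1.00e-09).

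Arhgap25, a Rac GTPase-activating protein of hematopoietic cells, and Cd300lb, an activating receptor of myeloid cells, belonged to the same 12 but had high levels in untreated cells. Arhgap25 was at 207, 204 and 204 FPKM in IL-4, 5.73, 2.18 and 2.43 FPKM in LPS and 109.8 ± 11.7 FPKM (SD, n = 3) in control, with a difference of -5.62 (SE 0.51, adjusted p = 2.50e-06). Cd300lb was at 214, 227 and 227 FPKM in IL-4, 11.0, 2.96 and 3.04 FPKM in LPS and 158 ± 5.22 FPKM (SD, n = 3) in control, with a difference of -5.28 (SE 0.62, adjusted p = 1.85e-05). In both genes, LPS replicate 1 was the highest LPS sample. For these the separation of the polarized states thus included a level in LPS far below that of untreated cells.

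**Figure D2:**
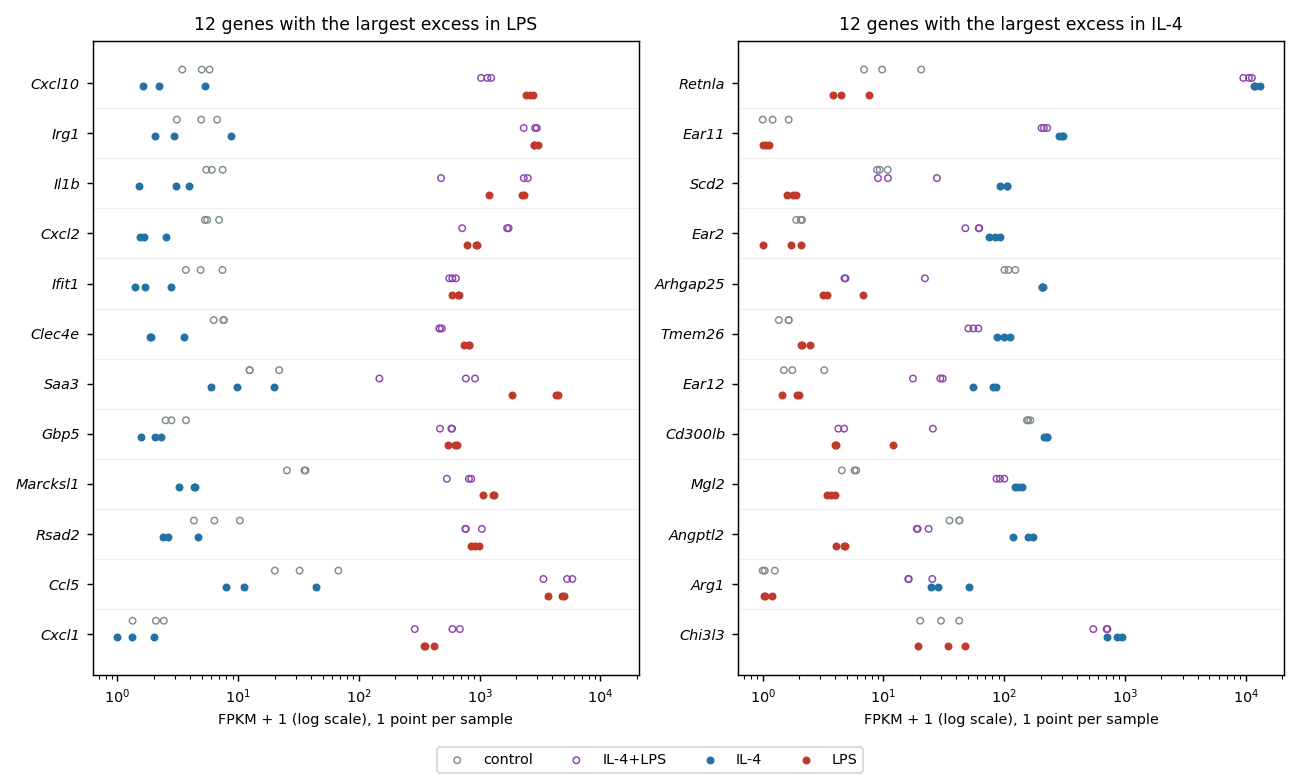
FPKM + 1 (horizontal axis, log scale) of the 12 genes with the largest excess in LPS (left) and in IL-4 (right), 1 point per sample, with LPS filled red, IL-4 filled blue, control open grey and IL-4+LPS open purple. LPS and IL-4 samples do not overlap for any of the 24 genes, which were chosen by these same differences. Control lies near IL-4 for the left-hand genes but near LPS for most of the right-hand genes.

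Promoter sequences are shown for 3 of the leading genes, chosen because they hold letters known to be bound by the transcription factors of each pathway, and some other leading genes hold none. Each run is the 250 bases before the annotated start, 5′ to 3′ on the strand of the gene, from RefSeq on GRCm38.p6 (mm10). Capitals mark matches, on either strand, to a κB core (GGANTTTCC), an interferon-stimulated response element (ISRE) core (GAAANNGAA), an AP-1 element (TGANTCA), or a STAT6-type pair of TTC and GAA with 4 bases between them. Cxcl10 lies at chr5:92348890-92349139 on the minus strand, Irg1 (Acod1 in RefSeq) at chr14:103046762-103047011 on the plus strand and Retnla at chr16:48842359-48842608 on the plus strand.
Cxcl10: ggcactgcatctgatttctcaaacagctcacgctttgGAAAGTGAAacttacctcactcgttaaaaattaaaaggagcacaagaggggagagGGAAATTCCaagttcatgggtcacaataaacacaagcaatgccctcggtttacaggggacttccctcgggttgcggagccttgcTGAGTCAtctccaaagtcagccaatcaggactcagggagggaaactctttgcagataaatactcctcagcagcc
Irg1: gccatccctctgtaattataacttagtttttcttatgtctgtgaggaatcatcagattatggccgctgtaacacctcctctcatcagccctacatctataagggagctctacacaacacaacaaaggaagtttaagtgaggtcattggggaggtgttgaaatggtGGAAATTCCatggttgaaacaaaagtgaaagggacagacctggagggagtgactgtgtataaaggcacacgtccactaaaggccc
Retnla: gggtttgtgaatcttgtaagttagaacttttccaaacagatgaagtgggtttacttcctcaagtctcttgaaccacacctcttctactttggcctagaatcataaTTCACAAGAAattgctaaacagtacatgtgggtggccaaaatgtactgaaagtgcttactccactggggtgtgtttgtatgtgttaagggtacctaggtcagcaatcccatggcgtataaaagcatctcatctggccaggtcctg

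The Cxcl10 promoter held an ISRE core at -213 to -205, a κB core at -158 to -150 and an AP-1 element at -74 to -68, counted from the start. The Irg1 promoter held a κB core at -85 to -77, and the Retnla promoter a STAT6-type pair at -145 to -136. Among the 12 genes with the largest excess in LPS, 11 had a promoter in RefSeq, of which 5 held a κB core, 5 an ISRE core, 2 an AP-1 element and 0 a STAT6-type pair in these 250 bases, and 3 (Il1b, Clec4e and Marcksl1) held no match. Among the 12 with the largest excess in IL-4, 9 had a promoter, of which 2 (Retnla and Tmem26) held a STAT6-type pair, 4 (Ear11, Ear2, Arhgap25 and Chi3l3) an ISRE core and 0 a κB core or AP-1 element, and 3 (Cd300lb, Mgl2 and Angptl2) held no match. Of the 10805 genes of tested rows, 8565 had a promoter in RefSeq, with 10867 promoters of 300 bases (250 before and 50 after the start). A κB core occurred in 1.25% of all 32851 promoters of the table and in 1.44% of those of tested rows. It occurred in 28 of 500 promoters (5.6%) of rows at least 4-fold higher in LPS, in 16 of 119 (13.4%) of rows at least 16-fold higher, and in 2 of 403 (0.496%) of rows at least 4-fold lower. The ISRE core occurred in 8.56% of all promoters and in 7.39% of those of tested rows. Its share was 17.8% and 26.1% in these higher sets and 5.71% in the lower set. In the 34 promoters of rows at least 16-fold lower, however, it occurred in 6 (17.6%), a share like that of rows at least 4-fold higher, while the κB core occurred in 0, the AP-1 element in 2 (5.88%) and the STAT6-type pair in 3 (8.82%). The AP-1 element occurred in 7.81% of all promoters but in 5.3% of those of tested rows. Its share was 10.4% and 18.5% in the higher sets and 8.19% in the lower set, each above that of tested rows. The STAT6-type pair was present in 6.95% of all promoters and in 5.53% of those of tested rows. Its share was 6.2% in the lower set, which holds the genes with an excess in IL-4, against 7.6% and 10.9% in the higher sets. The base composition of the sets differed, with a median GC content of 60.7% for tested rows, 50.7% for rows at least 16-fold higher and 60.3% for rows at least 4-fold lower. Among promoters under 55% GC, the κB core occurred in 2.06% for tested rows and in 12% for rows at least 16-fold higher, and the ISRE core in 13.7% and 36%. These shares describe sets chosen by the same differences and carry no test.

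**Figure D3:**
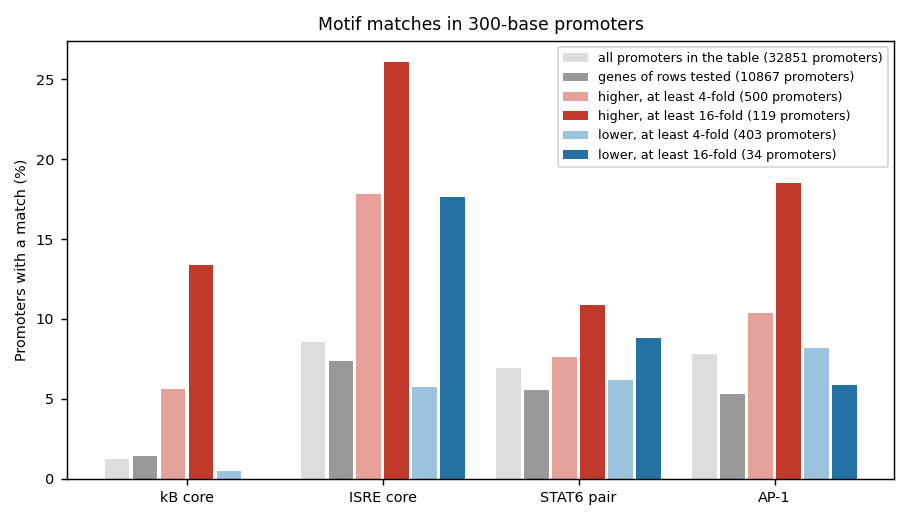
Percent of 300-base promoters (vertical axis, from 0) with at least 1 match to each of 4 motifs (horizontal axis), for all promoters of the table, promoters of tested rows, and promoters of rows at least 4-fold or 16-fold higher or lower in LPS. The κB core goes from 1.44% of the promoters of tested rows to 13.4% of those at least 16-fold higher, while the bars of the STAT6-type pair lie between 5.53% and 10.9%.

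Gene lists of the pathways were read against the share of all rows called, 18.9% higher and 56.1% lower, and against the median of all rows, -0.42. A member that reached 1 FPKM in only 1 of the groups entered its list through that group, so list counts are in part set by the filter. Of the TLR4 complex and its adaptors, 11 of 21 tested members were higher in LPS, 6 were lower and 4 did not pass the test, with a median difference of 0.69. Cd14, the co-receptor that hands LPS to TLR4, was at 1155, 1348 and 1310.4 FPKM in LPS and 19.3, 13.5 and 14.0 FPKM in IL-4 (6.27, SE 0.17, adjusted p = 7.19e-10). The receptor gene went the other way, as Tlr4 was at 13.5, 7.51 and 8.15 FPKM in LPS and 33.3, 20.4 and 23.2 FPKM in IL-4 (-1.32, SE 0.26, adjusted p = 8.15e-04). The inhibitor of the pathway Irak3 (3.48, SE 0.094, adjusted p = 7.19e-10) and the kinase Ikbke (3.15, SE 0.13, adjusted p = 7.18e-09) were higher, and the kinase Irak4 (-0.90, SE 0.093, adjusted p = 7.07e-06) and the TAK1-binding protein Tab1 (-1.68, SE 0.11, adjusted p = 2.65e-07) were lower.

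NF-κB subunits and inhibitors were higher in 13 of 14 cases (92.9%, against 18.9% of all rows) and none was lower, with a median difference of 3.67. The largest differences were those of inhibitors and modulators that are themselves NF-κB targets. Nfkbiz, an atypical nuclear IκB, was at 215, 243 and 249 FPKM in LPS and 0.887, 0.510 and 0.516 FPKM in IL-4 (7.18, SE 0.17, adjusted p = 3.76e-10). Nfkbia, which encodes IκBα, was at 660.1, 1063 and 1044 FPKM in LPS and 18.0, 23.3 and 21.2 FPKM in IL-4 (5.38, SE 0.24, adjusted p = 1.57e-08), and Tnfaip3, the deubiquitinase A20, differed by 5.27 (SE 0.29, adjusted p = 5.97e-08). Only the inhibitor Nfkbid missed the threshold, at 0.13 (adjusted p = 0.489, 95% interval -0.24 to 0.50).

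Immediate early factors and phosphatases split evenly, with 6 of 18 higher, 6 lower and 6 not past the threshold. Each share was 33.3%, against 18.9% of all rows higher and 56.1% lower. The AP-1 subunits Jun and Fos were lower in LPS. Jun was at 6.80, 5.83 and 6.25 FPKM in LPS and 70.2, 81.9 and 84.0 FPKM in IL-4 (-3.45, SE 0.14, adjusted p = 7.58e-09), and Fos at 10.4, 5.89 and 4.85 FPKM in LPS and 49.9, 72.6 and 76.0 FPKM in IL-4 (-3.10, SE 0.43, adjusted p = 6.58e-05). Untreated cells held 43.8 ± 3.27 FPKM of Jun and 91.7 ± 11.4 FPKM of Fos (SD, n = 3). Among the MAP kinase phosphatases, Dusp2 (5.11, SE 0.29, adjusted p = 8.74e-08) and Dusp16 (3.33, SE 0.28, adjusted p = 1.45e-06) were higher and Dusp4 (-2.85, SE 0.25, adjusted p = 2.12e-06) was lower, and the small Maf factor Maff was higher (2.54, SE 0.21, adjusted p = 1.45e-06).

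Of 19 inflammatory cytokine genes listed, Il23a, Lif and Csf2 were under the filter. Of the 16 tested, 15 were higher in LPS (93.8%, against 18.9% of all rows) and none was lower, with a median difference of 4.38. Tnf was at 1313, 1416 and 1357 FPKM in LPS and 7.28, 8.60 and 7.36 FPKM in IL-4 (7.29, SE 0.21, adjusted p = 7.55e-10). Il6 was at 48.8, 71.9 and 78.1 FPKM in LPS and 0.190, 0 and 0.0540 FPKM in IL-4 (5.94, SE 0.32, adjusted p = 5.62e-08), a lower level than Tnf in every LPS sample, and Il27, a subunit of interleukin 27, was at 231, 561 and 530.1 FPKM against 1.67, 0.838 and 0.665 FPKM (7.67, SE 0.48, adjusted p = 1.69e-07). Of the exon bases of Il27, 10.1% overlap another gene. Osm did not pass the test, with a mean of 1.63 FPKM in LPS and 1.76 FPKM in IL-4 (adjusted p = 0.812). Ifnb1, the interferon beta gene, was listed at 0 in all 3 IL-4 samples and at 3.13, 2.14 and 2.05 FPKM in LPS. Csf3 and the chemokines Cxcl5 and Cxcl11 were likewise listed at 0 in all 3 IL-4 samples. These genes and Il6 passed the filter only through LPS samples, so the counts of their lists are in part set by the filter. Neutrophil markers had a higher sum in LPS than in IL-4, as given above, and their part in the cytokine levels was not tested.

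CXC chemokines were higher in 9 of 11 cases (81.8%, against 18.9% of all rows) with none lower (median 3.00). CC chemokines split into 6 higher (42.9%), 4 lower (28.6%, against 56.1% of all rows) and 4 not past the threshold of 14 (median 0.25). After median scaling 3 CC chemokines were lower, and by the unadjusted Tukey test per row 2 were lower. Ccl4 and Ccl3, which attract monocytes and T cells, were at 1734, 4116 and 3792 FPKM and 1424, 2519.8 and 2476 FPKM in LPS, with differences of 7.33 (SE 0.52, adjusted p = 4.46e-07) and 6.57 (SE 0.44, adjusted p = 2.93e-07). The members lower in LPS were Ccl17, Ccl8, Ccl6 and Ccl24. Ccl17, a ligand of CCR4, was at 1.35, 4.81 and 1.99 FPKM in IL-4 and 0, 0.205 and 0.746 FPKM in LPS (-1.43, SE 0.45, adjusted p = 0.0142), and it missed the threshold without IL-4 replicate 2 (adjusted p = 0.062). Ccl8 (-1.26, SE 0.26, adjusted p = 0.00106) and Ccl6 (-1.23, SE 0.31, adjusted p = 0.00388) had IL-4 replicate 1 as their highest sample, and Ccl8 missed the threshold with a pseudocount of 0.1 (adjusted p = 0.08).

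All 30 interferon-stimulated genes tested were higher in LPS, against 18.9% of all rows, with a median difference of 4.52 and a range from 0.72 (Bst2, which tethers budding virus) to 8.42 (Ifit1). Isg15, a ubiquitin-like modifier, was at 755, 958 and 907 FPKM in LPS and 11.7, 6.00 and 5.87 FPKM in IL-4 (6.68, SE 0.26, adjusted p = 5.98e-09). In these 3 h samples Ifnb1 itself did not exceed 3.13 FPKM.

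Genes of the IL-4 receptor and STAT6 pathway were mostly higher in LPS, not in IL-4. Of 14 members, 10 were higher (71.4%, against 18.9% of all rows) and 3 lower, with a median difference of 0.81. Il4ra, the receptor chain that binds IL-4, was at 99.0, 234 and 207 FPKM in LPS and 15.7, 17.4 and 15.9 FPKM in IL-4 (3.29, SE 0.32, adjusted p = 4.65e-06), against 24.5 ± 0.986 FPKM (SD, n = 3) in control. The kinase Jak2 (2.84, SE 0.14, adjusted p = 2.44e-08) and the receptor chain Il13ra1 (2.62, SE 0.088, adjusted p = 2.15e-09) were also higher. Stat6 was lower, at 40.4, 39.8 and 36.8 FPKM in LPS and 61.7, 67.7 and 66.3 FPKM in IL-4 (-0.73, SE 0.079, adjusted p = 1.01e-05), as were the feedback inhibitor Socs2 (-1.70, SE 0.090, adjusted p = 4.97e-08) and the adaptor Irs2 (-1.06, SE 0.21, adjusted p = 9.64e-04). Socs1, an inhibitor of JAK kinases, had a control level of 0.829 ± 0.373 FPKM (SD, n = 3), below all samples of both states. Its LPS samples were at 35.7, 68.5 and 71.2 FPKM and its IL-4 samples at 33.3, 30.6 and 30.7 FPKM (0.81, SE 0.29, adjusted p = 0.0255), and this call was lost without LPS replicate 2 or 3 or IL-4 replicate 2 or 3 (adjusted p between 0.0614 and 0.098).

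Of 26 alternative polarization genes tested, 21 were lower in LPS (80.8%, against 56.1% of all rows) and 5 were higher, with a median difference of -2.91. Part of this list is known from studies of IL-4 in the same kind of cells, the present study included, so its direction is not independent evidence. Members such as Irf4, Arg1 and Ear11 also passed the filter only through IL-4 samples. Beside Retnla, Ear11, Tmem26, Mgl2 and Arg1, the transcription factor Irf4 was at 19.2, 20.6 and 19.9 FPKM in IL-4 and 0.0719, 0.249 and 0.0649 FPKM in LPS (-4.22, SE 0.090, adjusted p = 2.36e-10). Mrc1, the mannose receptor CD206, separated the states less, at 284, 234 and 249.6 FPKM in IL-4 and 118, 94.2 and 98.4 FPKM in LPS (-1.30, SE 0.15, adjusted p = 1.83e-05), and its control level was 181 ± 15.7 FPKM (SD, n = 3). Edn1, the vasoconstrictor endothelin, went against the list, at 18.6, 108 and 99.7 FPKM in LPS and 1.21, 0.393 and 0.290 FPKM in IL-4 (5.24, SE 0.67, adjusted p = 3.49e-05). So did the cross-linking enzyme Tgm2 (3.20, SE 0.28, adjusted p = 2.08e-06), the factor Tfec (2.13, SE 0.13, adjusted p = 1.28e-07), the CCR4 ligand Ccl22 (1.58, SE 0.46, adjusted p = 0.00896) and the clotting factor chain F13a1 (1.21, SE 0.28, adjusted p = 0.00242). For Tgm2, 21.8% of the exon bases overlap other genes, and the library kit did not mark the strand.

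**Figure D4:**
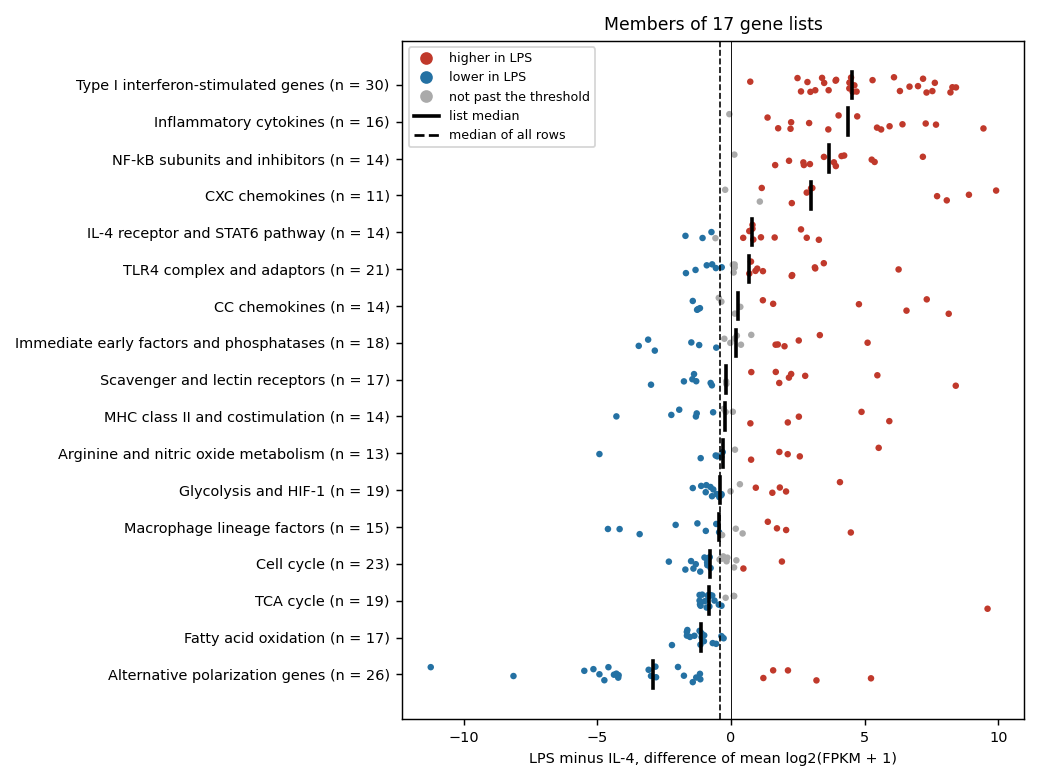
Difference of mean log2(FPKM + 1), LPS minus IL-4 (horizontal axis), of each tested member of 17 gene lists (vertical axis), red where higher in LPS, blue where lower and grey where not past the threshold. Thick bars mark the list medians, from 4.52 for interferon-stimulated genes to -2.91 for alternative polarization genes, and the dashed line marks the median of all rows at -0.42.

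Arginine is the substrate of both Nos2, the inducible nitric oxide synthase, and Arg1. Nos2 was at 16.3, 87.8 and 79.7 FPKM in LPS and 0.133, 0.0494 and 0.0631 FPKM in IL-4 (5.53, SE 0.68, adjusted p = 2.68e-05), the reverse of Arg1, and LPS replicate 1 was the lowest LPS sample by far. Gch1, which supplies the cofactor of nitric oxide synthase, was higher in LPS (2.58, SE 0.083, adjusted p = 1.69e-09), as was Ass1, which regenerates arginine (2.12, SE 0.51, adjusted p = 0.00285), although 55.3% of the words of Ass1 occur in other genes and its level is uncertain. Srm, the spermidine synthase, was lower (-1.13, SE 0.27, adjusted p = 0.00322), as was Asl, the lyase that follows Ass1 (-0.57, SE 0.076, adjusted p = 4.88e-05). Over the list, 5 of 13 members were higher (38.5%) and 6 lower (46.2%), against 18.9% and 56.1% of all rows. The median was -0.31, and after median scaling 3 were lower.

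Glycolytic genes as a group did not stand at a distance from all rows, with 5 of 19 higher, 12 lower (63.2%) and a median of -0.42. The members higher in LPS included Pfkfb3, which makes the activator of phosphofructokinase and was at 44.7, 175 and 172 FPKM in LPS and 5.59, 6.37 and 4.93 FPKM in IL-4 (4.08, SE 0.60, adjusted p = 9.65e-05). The lactate exporter Slc16a3 (2.06, SE 0.14, adjusted p = 2.55e-07) and the oxygen-responsive factor Hif1a (1.83, SE 0.14, adjusted p = 6.21e-07) were higher as well. Hk3, a hexokinase, was lower, at 97.9, 87.5 and 83.7 FPKM in LPS and 227, 258 and 243 FPKM in IL-4 (-1.43, SE 0.078, adjusted p = 6.59e-08). Pgam1 (-1.11, SE 0.12, adjusted p = 7.54e-06) and Ldha (-0.94, SE 0.16, adjusted p = 3.03e-04) were lower too, but 41.5% and 16.6% of their words occur in other genes, mostly pseudogenes. After median scaling, 7 members were lower and 7 higher.

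Most genes of mitochondrial oxidation were lower in LPS, and the medians of both lists lay below that of all rows. Of 19 genes of the TCA cycle list, 15 were lower in LPS (78.9%, against 56.1% of all rows) and 1, Irg1, was higher, with a median of -0.81. Sdhb, a subunit of succinate dehydrogenase, was at 78.2, 78.7 and 78.5 FPKM in LPS and 182, 173 and 179 FPKM in IL-4 (-1.17, SE 0.050, adjusted p = 1.07e-08), and its samples varied by little. Idh3a, a subunit of isocitrate dehydrogenase (-1.17, SE 0.11, adjusted p = 3.16e-06), and Mdh2, malate dehydrogenase (-1.16, SE 0.11, adjusted p = 3.25e-06), differed by about as much. Of 17 fatty acid oxidation genes, all 17 were lower and 11 of them at least 2-fold, against 56.1% and 19.3% of all rows, with a median of -1.10. Echs1, the enoyl-CoA hydratase, was at 15.8, 14.2 and 13.8 FPKM in LPS and 73.5, 67.9 and 71.3 FPKM in IL-4 (-2.21, SE 0.075, adjusted p = 2.33e-09), and the control level of 42.0 ± 1.98 FPKM (SD, n = 3) lay between them. Etfdh (-1.65, SE 0.11, adjusted p = 2.23e-07) and Acads (-1.65, SE 0.13, adjusted p = 7.42e-07) followed. After median scaling, 13 members of each of these lists were lower, none of fatty acid oxidation was higher and 3 of the TCA cycle list were higher.

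Cell cycle genes were called lower in LPS in 13 of 23 cases (56.5%), a share near the 56.1% of all rows, and higher in 2, with a median of -0.79. Ccnd1, cyclin D1, was at 5.25, 6.69 and 6.11 FPKM in LPS and 25.9, 37.8 and 39.8 FPKM in IL-4 (-2.32, SE 0.26, adjusted p = 1.36e-05), with 23.4% of its exon bases overlapping another gene. Mcm2, a subunit of the replicative helicase (-1.70, SE 0.26, adjusted p = 1.24e-04), and Pcna, the sliding clamp (-1.49, SE 0.095, adjusted p = 1.86e-07), were lower, though 31.8% of the words of Pcna occur in other genes. Mki67, a proliferation antigen, was higher, at 17.6, 14.1 and 15.2 FPKM in LPS and 6.47, 1.90 and 2.99 FPKM in IL-4 (1.91, SE 0.29, adjusted p = 1.23e-04). Ccnb2, cyclin B2 (0.47, SE 0.16, adjusted p = 0.0187), lost its call without LPS replicate 1 or 2 or IL-4 replicate 2 or 3.

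Among macrophage lineage factors, 4 of 15 were higher in LPS (26.7%, against 18.9% of all rows) and 8 lower (53.3%), with a median of -0.44. The share lower and the median were near those of all rows, 56.1% and -0.42. Bhlhe40, a helix-loop-helix repressor, was at 64.4, 67.2 and 67.1 FPKM in IL-4 and 1.69, 2.03 and 1.62 FPKM in LPS (-4.60, SE 0.13, adjusted p = 7.55e-10), and control lay nearer LPS at 5.14 ± 0.402 FPKM (SD, n = 3). Cebpa, a myeloid lineage factor, was lower in LPS (-3.41, SE 0.34, adjusted p = 4.92e-06), while its relative Cebpd was higher, at 87.8, 133 and 135 FPKM in LPS and 3.93, 4.19 and 4.64 FPKM in IL-4 (4.49, SE 0.31, adjusted p = 3.16e-07). Of the exon bases of Cebpd, 15.0% overlap another gene. The factors Maf (2.07, SE 0.081, adjusted p = 5.98e-09) and Klf6 (1.72, SE 0.082, adjusted p = 2.27e-08) were higher in LPS. Maf was at 63.7 ± 0.967 FPKM (SD, n = 3) in control, close to LPS and above IL-4.

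Scavenger and lectin receptors split into 8 higher (47.1%) and 7 lower (41.2%) of 17, against 18.9% and 56.1% of all rows, with a median of -0.17. Beside Clec4e, the scavenger receptor Marco was higher, with LPS samples spread over 25.5, 115 and 56.8 FPKM and IL-4 samples at 0.188, 0.604 and 0.0536 FPKM (5.48, SE 0.85, adjusted p = 1.48e-04), and so was Clec4n, the mannan receptor Dectin-2 (2.78, SE 0.25, adjusted p = 2.67e-06). Clec7a, the β-glucan receptor Dectin-1, was lower in LPS, at 71.4, 31.7 and 34.2 FPKM against 569.6, 270.2 and 268 FPKM in IL-4 (-2.99, SE 0.43, adjusted p = 8.82e-05). Clec10a (-1.76, SE 0.20, adjusted p = 1.44e-05), a paralog of Mgl2, and the fatty acid and lipoprotein receptor Cd36 (-1.44, SE 0.14, adjusted p = 3.97e-06) were also lower.

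Of 14 MHC class II and costimulation genes, 5 were higher in LPS (35.7%) and 6 lower (42.9%), against 18.9% and 56.1% of all rows, with a median of -0.23. The higher members were Cd40, Icosl, Cd86, Cd80 and Cd274, which act in costimulation or its inhibition. Cd40, which receives help from T cells, was at 410.2, 707 and 699 FPKM in LPS and 7.72, 8.50 and 9.95 FPKM in IL-4 (5.93, SE 0.28, adjusted p = 2.51e-08), Icosl was at 42.8, 34.4 and 32.1 FPKM against 0.460, 0.0919 and 0.244 FPKM (4.89, SE 0.14, adjusted p = 7.55e-10), and Cd86, a ligand of CD28, differed by 2.54 (SE 0.15, adjusted p = 1.35e-07). Pdcd1lg2, the inhibitory ligand PD-L2, was lower, at 0.125, 0.129 and 0.235 FPKM in LPS and 23.1, 21.9 and 19.9 FPKM in IL-4 (-4.28, SE 0.13, adjusted p = 1.31e-09). Ciita, the transactivator of MHC class II genes (-2.23, SE 0.12, adjusted p = 4.61e-08), was lower too. So was H2-DMa, a chain of the peptide loading factor (-1.93, SE 0.15, adjusted p = 9.32e-07), of which 10.4% of the exon bases overlap another gene. The class II chains H2-Aa (-0.27, adjusted p = 0.0705, 95% interval -0.54 to 0.01), H2-Ab1 (-0.19, adjusted p = 0.250, 95% interval -0.52 to 0.13) and H2-Eb1 (0.07, adjusted p = 0.674, 95% interval -0.25 to 0.40) did not pass the test, and these intervals leave no room for a 2-fold difference.

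The untreated level of each gene was set beside both states, as a description with no test. Of the 485 rows at least 4-fold higher in LPS, the control mean lay nearer the IL-4 mean in 339 (69.9%), below both means in 95 (19.6%), nearer LPS in 40 (8.25%) and above both in 11 (2.27%). Of the 369 rows at least 4-fold lower, control lay nearer IL-4 in 172 (46.6%), above both in 97 (26.3%), nearer LPS in 92 (24.9%) and below both in 8 (2.17%). Retnla (control 11.4 ± 7.19 FPKM, SD, n = 3), Arg1 and Mgl2 were among the 92 rows with untreated levels nearer LPS.

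Cells given IL-4 and then LPS lay nearer LPS alone in 293 (60.4%) of the rows higher in LPS, above both in 123 (25.4%), nearer IL-4 in 62 (12.8%) and below both in 7 (1.44%). For the rows lower in LPS they lay nearer LPS in 213 (57.7%), nearer IL-4 in 83 (22.5%), below both in 63 (17.1%) and above both in 10 (2.71%). Retnla at 10480.3 ± 858 FPKM and Chi3l3 at 655 ± 94.7 FPKM had levels nearer those of IL-4 alone, whereas Arhgap25 at 9.55 ± 9.96 FPKM and Cd300lb at 10.5 ± 12.2 FPKM were nearer LPS alone (SD, n = 3 each). Cd14, at 266 ± 59.8 FPKM, lay between, and Il6 at 322 ± 145 FPKM, Edn1 at 288 ± 164 FPKM and Ccl17 at 64.0 ± 33.4 FPKM had means above both states (SD, n = 3 each).

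**Figure D5:**
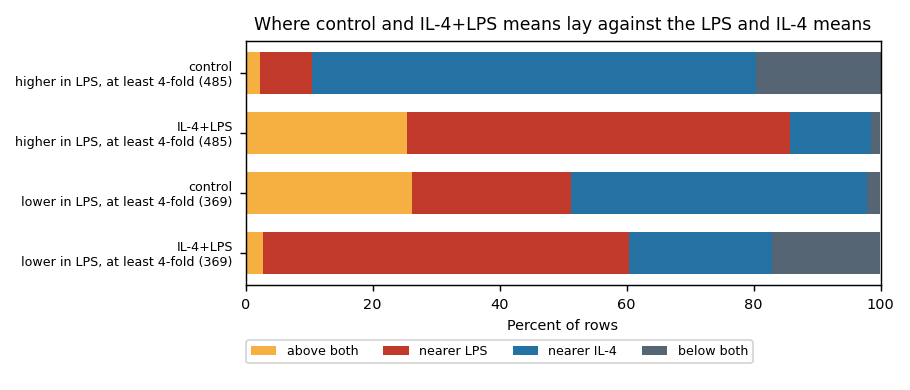
Percent of rows (horizontal axis) in which the mean log2(FPKM + 1) of control or of IL-4+LPS lay above both polarized states, nearer LPS, nearer IL-4 or below both, for the 485 rows at least 4-fold higher and the 369 rows at least 4-fold lower in LPS. Control lies nearer IL-4 for 69.9% of the higher rows but for 46.6% of the lower rows.

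Replicate 1 held the smaller separation of the states. Over the 485 higher rows, the median difference was 2.87 for replicate number 1, 3.14 for 2 and 3.18 for 3, and LPS replicate 1 was the lowest LPS sample in 293 rows while IL-4 replicate 1 was the highest IL-4 sample in 299. Over the 369 lower rows, the medians were -2.42, -2.64 and -2.74, with LPS replicate 1 the highest of its group in 218 rows and IL-4 replicate 1 the lowest of its group in 208. These rows were chosen by the same differences, so the medians are descriptions. Nos2, Edn1 and Saa3, each lowest in LPS replicate 1 of its group, belong to this pattern. Without LPS replicate 1, 514 rows were at least 4-fold higher and 416 at least 4-fold lower.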

How the data were processed

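RNA-seq was made by the authors from poly-A selected RNA of 12 BMDM samples with a kit that does not mark the strand. Per the labels and the study's methods, reads were mapped to mm10 with TopHat2 (2.0.7) and expression was computed with Cufflinks (2.0.2), versions as in the submitters' processing notes. The gene annotation was not given in the sources used here. The deposited values are FPKM, 1 table per sample, with no further normalization stated. Fragment counts are not in these values, so depth is known only as relative depth from the steps between low FPKM values, found for the 6 samples compared. For 9 of 10 other pairs of samples the step ratio was within 1% of those depths.

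Tables (23361 symbols, 254 of them with more than 1 row) were joined by symbol, locus and start site. The main test was limma 3.58.1 in R 4.3.3 (lmFit and eBayes with an intensity trend) on log2(FPKM + 1), two-sided, as a group-means fit of all 12 samples, contrast LPS minus IL-4, with Benjamini-Hochberg adjustment over 10854 rows. p-values measure the spread between these samples, since separate animals are tied to none of them by the labels. On simulated data for this contrast (10854 rows), 91% of 200 rows changed 2-fold were recovered and 4.21% of calls were false. The changed rows were drawn from the better expressed rows. All other rows were left unchanged, and the noise was normal and independent, with no replicate effect. Most real rows were called and replicate 1 stood apart, so these rates check the code and need not hold for the data.

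The members and lists were chosen with earlier results of these data known. Named genes are the 12 with the largest difference in each direction (past the threshold, same sign in all 3 replicate numbers, symbol with 1 row, no microRNA, small nucleolar RNA, Gm or Rik symbol), the defining members of 17 lists, the members with the largest differences, and members against their list. Members named for a missed test or a level of 0 were chosen after their values were seen, as were those that complete a count. Some genes are not reported here. Motifs were chosen with the calls known. Shared 50-base words and exon overlaps come from GENCODE vM21, in which 98 of 99 named genes were found at the locus of the tables. Alternatives varied the pseudocount (0.1), filter, scaling, samples, prior, fold minimum, test and replicates. No table of per-sample values was left out.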

Additional observations from a re-analysis of the deposited data

How the results depend on the processing

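The counts of 2056 higher and 6092 lower rows stayed within 1.5 times under each alternative but a minimum of 2-fold, which left 1037 higher and 2092 lower. Without 1 replicate at a time they were 1922 to 2034 and 5723 to 5993, and the median of all rows was -0.43 to -0.41. That median was -0.49 with a pseudocount of 0.1, -0.15 with no filter, -0.14 after quantile normalization and -0.13 after median scaling. Called rows changed direction in 19 cases under quantile normalization and in 10 under median scaling, none of them a named gene. Whether the numbers pair the samples was not settled. LPS and IL-4 samples of the same number deviated together with r = 0.16, 0.080 and 0.0048. LPS replicate 3 went best with IL-4 replicate 2 (0.14). These r values rest on 3 samples per group and cannot decide it. All 7 neutrophil markers that reached 1 FPKM were lowest in replicate 1 and highest in replicate 2, in LPS and in IL-4. With a replicate block, 2320 rows were higher and 6599 lower, and no call of a named gene changed.

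Stat6, Irak4, Asl, Ldha, Socs1 and Ccnb2 passed the threshold but not a 2-fold minimum. Ccl17, Socs1 and Ccnb2 missed the threshold of the unadjusted Tukey test per row, and Ccl8 missed that of limma with a pseudocount of 0.1. The cause was not tested. Quantile normalization gave 5 cell cycle genes higher and median scaling 4, in place of 2. Relative depth without fragment counts gives no interval for low values such as those of Ccl17 or Ifnb1.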

Other observations

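Further gene groups were chosen after values of these rows were seen, so their counts are descriptions (limma, adjusted over all rows). Of 22 genes of cholesterol synthesis and uptake, 22 were lower in LPS than in IL-4, 20 of them at least 2-fold. Of all rows, 56.1% were lower and 19.3% at least 2-fold lower. The median difference of the group was -2.16 against -0.42 over all rows, and 21 were lower after median scaling. Mvd, which makes isopentenyl diphosphate, was at 2.21 ± 0.185 FPKM in LPS and 36.5 ± 5.80 FPKM in IL-4 (SD, n = 3 each), a difference of -3.54 (SE 0.13, adjusted p = 4.00e-09). Sqle, the squalene epoxidase, was at 4.42 ± 1.31 FPKM in LPS and 52.2 ± 10.3 FPKM in IL-4 (SD, n = 3 each). Scd2, among the 12 genes with the largest excess in IL-4, belongs to lipid synthesis as well.

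Of 17 genes of the V-ATPase, the proton pump of lysosomes, 14 were lower in LPS and 6 of them at least 2-fold, with a median of -0.71, against 56.1% of all rows lower and 19.3% at least 2-fold lower. After median scaling, 10 were lower and 1 higher. The difference was uneven among subunits, as Atp6v0a1 was at 45.9 ± 1.76 FPKM in LPS and 477 ± 91.5 FPKM in IL-4 and Atp6v0d2 at 54.9 ± 15.3 FPKM in LPS and 524 ± 93.6 FPKM in IL-4 (SD, n = 3 each), while Atp6v0b (-0.04, SE 0.13, adjusted p = 0.813) did not pass the test. Atp6v0d2 is also a gene of macrophage fusion and osteoclasts. Of 10 genes tested in that group 6 were lower and 2 higher, shares near the 56.1% and 18.9% of all rows. All 6 and both of the higher ones differed at least 2-fold, against 19.3% of all rows lower and 9.55% higher by that much. The median of the group was -2.27 against -0.42 over all rows, and 6 were lower and 3 higher after median scaling. Ocstamp, needed for cell fusion, was at 0.624 ± 0.112 FPKM in LPS and 40.9 ± 4.12 FPKM in IL-4 (SD, n = 3 each), a difference of -4.69 (SE 0.10, adjusted p = 2.10e-10). It passed the filter only through IL-4 samples. Itgb3, an integrin chain of osteoclasts, differed by -3.48 (SE 0.15, adjusted p = 1.01e-08). The matrix protease Mmp9 (3.18, SE 0.18, adjusted p = 8.16e-08) and the receptor Tnfrsf11a (1.23, SE 0.087, adjusted p = 4.00e-07) went the other way. Acp5 (0.81, adjusted p = 0.0534) and Nfatc1 (-0.10, adjusted p = 0.738) did not pass the test, and Acp5 was higher after median scaling (1.14, adjusted p = 0.0167).

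Of 11 formyl peptide and NOD-like receptor genes, 8 were higher in LPS, all 8 at least 2-fold (18.9% of all rows were higher and 9.55% at least 2-fold), 1, Nlrp1a, was lower, and Nlrc4 and Nlrp1b did not pass the test. Fpr1, Fpr2 and Nod2 passed the filter only through LPS samples, so the count is in part set by the filter. Nlrp3, the inflammasome sensor, was at 269 ± 4.36 FPKM in LPS and 1.79 ± 0.443 FPKM in IL-4 (6.61, SE 0.12, adjusted p = 2.10e-10), and the formyl peptide receptor Fpr2 at 164 ± 9.15 FPKM in LPS and 0.325 ± 0.172 FPKM in IL-4 (6.96, SE 0.23, adjusted p = 2.05e-09). Among genes often used as references, Ywhaz differed by 0.01 (SE 0.082, adjusted p = 0.904) and Hprt by 0.11 (SE 0.090, adjusted p = 0.299), with 95% intervals of -0.17 to 0.19 and -0.09 to 0.31, but Actb was higher in LPS (0.78, SE 0.16, adjusted p = 0.00122) and Tbp lower (-0.31, SE 0.093, adjusted p = 0.0112). After median scaling, the differences of Ywhaz, Hprt and Actb were 0.35, 0.45 and 1.13, and Tbp no longer passed the test (0.0020, adjusted p = 0.985).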
